A study of Homo sapiens with 4 samples.

Results

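Entry into mitosis is switched on by the cyclin-dependent kinase CDK1, and 10 genes that build this switch are described here: CDK1 itself, its docking subunit CKS2, the cyclins CCNB1, CCNB2 and CCNA2, the inhibitory kinases WEE1 and PKMYT1, and the phosphatases CDC25A, CDC25B and CDC25C. They were found by gene symbol and are 10 of the 43450 genes in the expression table. The set was selected on knowledge of the same contrast between knockdown and control libraries that is described below, WEE1 being read beside the activators it opposes. The members' differences are therefore given as a description, and no test of that contrast is used to support them.

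The RNA came from BLaER1, an established line of human leukaemic B cells. It was made with a C/EBPα transgene whose induction turns the cells into macrophage-like ones. The series holds 2 control libraries and 2 libraries from cells in which HAL7, a long non-coding RNA, was knocked down, and it asks which transcripts differ after the knockdown. Per the labels' protocols, 3 LNA GapmeRs against HAL7, antisense oligonucleotides that direct RNase H to the bound RNA, went straight into the medium with no transfection step. That text is the same for all 4 samples, and the sources used here do not give the treatment of the controls, the time of exposure or the GapmeRs' sequences. No label says that the C/EBPα transgene was induced, and all cells are of 1 line. The replicates are numbered 0 and 1 in each group and the labels do not say whether they were separate cultures, so any p-value measures only the spread between these libraries.

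CDK1 is inactive until it binds a cyclin, and in the cyclin-bound form it is held back by phosphorylation of its ATP-binding loop. WEE1 and PKMYT1 place that phosphorylation, and the CDC25 phosphatases remove it; active CDK1 in turn stimulates CDC25 and inhibits WEE1 and PKMYT1, so the transition is abrupt. Transcripts of cyclin B, CDK1 and several other members accumulate in G2 and mitosis, through promoters that carry a cell cycle genes homology region (CHR) bound by MuvB complexes and nearby CCAAT boxes bound by NF-Y.

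RefSeq promoter windows of 300 bases ran from 250 bases before to 50 bases after a transcript start on GRCh38.p14. They were at hand for 8 of the 10 members, with 15 windows in all. The inhibitory kinases WEE1 and PKMYT1 had none, so the counts below do not cover them. The windows were searched on both strands for CCAAT and for 4 hexamers known as forms of the CHR. These were the canonical form TTTGAA, its variant TTTAAA, the variant TTCGAA and lastly the variant CTTGAA. A hexamer may share end letters with a CCAAT box, and such matches were counted for both. A CHR hexamer was present in 7 of the 8 members and in 10 of the 15 windows, where 36.7% of the 27305 symbols and 32.2% of the 35116 windows in the table hold one. CCAAT was present in 8 of 8 members and 11 of 15 windows, and in 39.7% of all symbols and 34.6% of all windows. In 5 members, CCNB1, CCNB2, CKS2, CCNA2 and CDC25C, a CHR hexamer began between 30 and 28 bases before a transcript start, in 1 window each, which 1.31% of all symbols and 1.03% of all windows show; this range of positions was chosen after the members' positions were seen. In CDK1 the nearest hexamer upstream of the second annotated start began 13 bases before it. Such matches describe letters in a window and do not show that a factor is bound. The stretches around these hexamers are shown because the position is shared across cyclins, kinase subunit and phosphatase; each is 30 bases on the strand of the gene, 5′ to 3′, with the CHR hexamer in capitals.
CCNB1, chr5:69167108-69167137, plus strand: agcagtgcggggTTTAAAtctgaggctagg
CCNB2, chr15:59105105-59105134, plus strand: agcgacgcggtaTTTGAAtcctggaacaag
CKS2, chr9:89311154-89311183, plus strand: cgggctgtcggaTTCAAAtccggatcgttg
CCNA2, chr4:121823894-121823923, minus strand: agtcgcgggataCTTGAActgcaagaacag
CDC25C, chr5:138331817-138331846, minus strand: gctggcggaaggTTTGAAtggtcaacgcct
CDK1, chr10:60778453-60778482, plus strand: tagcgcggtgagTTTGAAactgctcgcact
The hexamer of CKS2 reads TTCAAA on the gene's strand, which is TTTGAA on the other strand.

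A pair of longer stretches shows a window with a CHR hexamer and one without. Each covers the 130 bases before the transcript start, with CCAAT boxes (ATTGG where the box lies on the other strand) and CHR hexamers in capitals. CKS2 carries 2 CCAAT boxes ahead of its CHR hexamer in this stretch. CDC25A has 2 CCAAT boxes in the stretch, and none of the 4 hexamers was found anywhere in its 300-base window.
CKS2, chr9:89311065-89311194, plus strand: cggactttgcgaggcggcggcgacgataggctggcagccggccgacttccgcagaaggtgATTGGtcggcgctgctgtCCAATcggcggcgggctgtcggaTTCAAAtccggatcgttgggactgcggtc
CDC25A, chr3:48188418-48188547, minus strand: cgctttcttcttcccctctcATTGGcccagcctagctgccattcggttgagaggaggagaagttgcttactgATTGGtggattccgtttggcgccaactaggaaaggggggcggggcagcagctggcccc

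Levels are in FPKM, a fragment count scaled to the length of the transcript and to the mapped fragments of the library. Depth is not stated, but the steps between low FPKM values correspond to 60.3 M fragments in control replicate 0 and 96.0 to 127 M in the other 3 libraries, if the authors' scaling left totals unchanged. HAL7 was measured at 0.726 and 0.613 FPKM in control replicates 0 and 1 and at 0.475 and 0.347 FPKM in knockdown replicates 0 and 1. The knockdown mean was 0.614 times the control mean, and the difference did not pass the fit across all genes (limma, adjusted p = 0.32). All 14 B cell markers on the list used were above the filter, with a summed level of 4850 and 4799 FPKM in the controls and 4638 and 4693 FPKM after knockdown. Their log2 differences were negative in 11 of 14 and positive in 3. With no overlap between the groups, 7 were lower and 2 higher, beside 27.7% lower and 22.5% higher among all tested genes. The 2 of smallest unadjusted p went opposite ways, RAG1 with a ratio of 0.827 and MME with 1.40. None passed the adjusted threshold. The list had a median GC content of 56.6%. Its median log2 difference was -0.04, and -0.03 with the GC trend described below removed. Macrophage markers passed the filter in 2 of 11 cases (CSF1R at 33.8 to 38.0 FPKM and CD68 at 2.73 and 3.21 FPKM in the controls and 2.43 and 2.0 FPKM after knockdown), CD14 and LYZ were under 0.2 FPKM, and S100A8 and S100A9 were listed at 0 in all 4 libraries. Of the 8 T cell and NK cell markers only NKG7 passed; the summed level of the list was 27.6 and 27.3 FPKM in the controls and 22.0 and 17.3 FPKM after knockdown, with CD3D, CD3G and CD2 listed at 0. No erythroid marker and 1 of 7 fibroblast and epithelial markers, COL1A1, passed; the latter list summed to 2.89 and 3.40 FPKM in the controls and to 2.16 and 2.33 FPKM after knockdown. The part of these markers in the results below was not tested. In bulk RNA, a different share of cells in a phase of the cell cycle and a different amount of a transcript per cell cannot be told apart.

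CDK1 and WEE1, the kinase and its main nuclear inhibitor, stood higher in both knockdown libraries than in both controls by nearly the same ratio, 1.31 and 1.32. CKS2 and CCNA2 were higher by ratios of 1.27 and 1.25, CCNB2 by 1.15 and CDC25A by 1.16. CCNB1, the principal cyclin partner of CDK1 at mitotic entry, had a ratio of 0.997, and CDC25B one of 1.02. In all, the knockdown libraries were both above the controls for 7 members, both below them for PKMYT1, and overlapped with them for CCNB1 and CDC25B. Among the 12935 genes tested, 22.5% had both knockdown libraries above both controls and 27.7% had both below; the members were chosen with these values known, so nothing is read from that contrast. In the limma fit across all genes, 0 of the 10 members passed an adjusted p of 0.05, with adjusted p-values from 0.19 to 0.98, where 0.0309% of all genes did. At an unadjusted p under 0.05 the fit held 5 members as higher and 0 as lower, where 7.25% of all genes were higher and 9.35% lower. These counts too come from the contrast that chose the members, and nothing is read from them. The median log2 change of the 10 members was 0.19, and that of all tested genes was -0.01. With 2 libraries against 2, an exact permutation test of 1 gene cannot go below a two-sided p of 0.333.

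**Figure D1:**
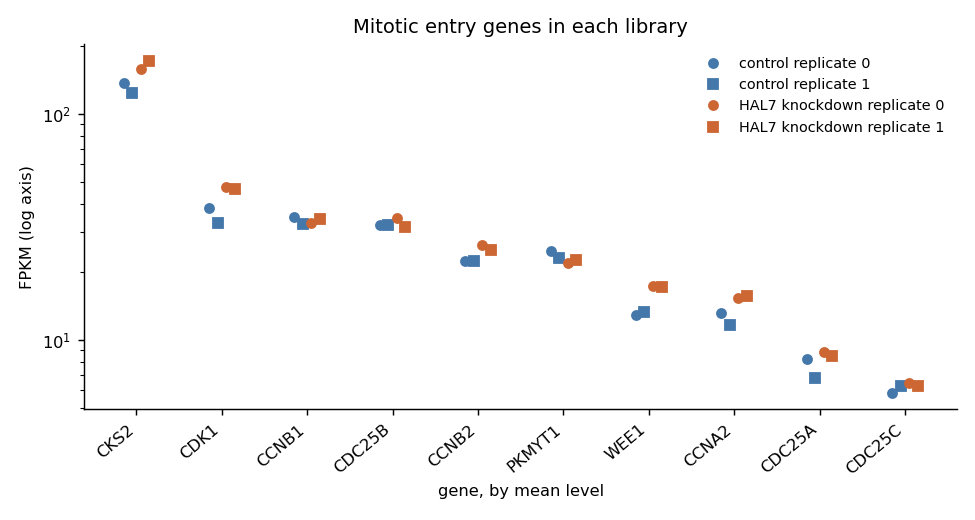
FPKM on a log axis of the 10 mitotic entry genes, ordered by mean level, with 1 point for each of the 2 control libraries (blue) and 2 HAL7-knockdown libraries (orange) and the replicate number as the shape. CDK1 sits at 38.4 and 33.0 FPKM in the controls and at 47.4 and 46.3 FPKM after knockdown, whereas the CCNB1 points of the groups intermingle around 33.6 FPKM.

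CDK1 (ENSG00000170312.10, chr10:60778331-60794852 on GRCh38, GENCODE 29) encodes the kinase at the centre of the switch. It was measured at 38.4 FPKM in control replicate 0 and 33.0 FPKM in control replicate 1, and at 47.4 and 46.3 FPKM in knockdown replicates 0 and 1. The control mean was 35.7 ± 3.80 FPKM and the knockdown mean 46.8 ± 0.819 FPKM (SD, n = 2 each). The lower of the knockdown libraries lay 7.88 FPKM above the higher control, and the controls were further apart than the knockdown libraries. On the log2(FPKM + 1) scale, used for all log2 changes here, the difference was 0.39 ± 0.08 (SE). By log2 change CDK1 was within the top 0.858% of tested genes, a rank made from the contrast that chose the members. Without control replicate 1, the lower of the controls, the log2 difference was 0.28, and without control replicate 0 it was 0.49.

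CKS2 (ENSG00000123975.4, chr9:89311198-89316703) encodes a small subunit that docks CDK1 on substrates that are already phosphorylated. Its level was 137 and 124 FPKM in the controls and 158 and 172 FPKM after knockdown. The means were 130.5 ± 9.20 and 165 ± 10.0 FPKM (SD, n = 2 each), a log2 difference of 0.34 ± 0.07 (SE). It was the most abundant member in every library, 3.58 times the mean level of CDK1, the next in order. Its paralog CKS1B, which is no member, stood at 46.4 and 45.9 FPKM in the controls and 48.0 and 51.2 FPKM after knockdown, a ratio of 1.07.

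The cyclins differed among themselves. CCNA2 (ENSG00000145386.5, chr4:121816444-121823933), cyclin A2, which pairs with CDK2 in S phase and with CDK1 later, was at 13.1 and 11.7 FPKM in the controls and 15.3 and 15.6 FPKM after knockdown. Its means were 12.4 ± 0.996 and 15.5 ± 0.199 FPKM, and its log2 difference was 0.30 ± 0.07 (SE). An exon of CCNA2 shares 250 bases with the gene EXOSC9 on the opposite strand; EXOSC9 was at 34.0 and 38.7 FPKM in the controls and 39.2 and 38.4 FPKM after knockdown. Strand-specific counting is not stated, so reads from the shared bases cannot be told apart.

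CCNB2 (ENSG00000157456.3, chr15:59105078-59125045), a cyclin B found mainly at the Golgi, was at 22.2 and 22.3 FPKM in the controls and 26.2 and 25.0 FPKM after knockdown. The control mean was 22.3 ± 0.0798 FPKM and the knockdown mean 25.6 ± 0.873 FPKM (SD, n = 2 each); the log2 difference was 0.19 ± 0.05 (SE). The processed pseudogene CCNB2P1 was at 0.0153 FPKM in control replicate 1 and listed at 0 elsewhere.

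CCNB1 (ENSG00000134057.10, chr5:69167010-69178245), the cyclin B that moves into the nucleus with CDK1 at mitotic entry, was at 34.9 and 32.4 FPKM in the controls and at 33.0 and 34.2 FPKM after knockdown. Both knockdown values lay between the control values. The means were 33.7 ± 1.75 and 33.6 ± 0.820 FPKM, and the log2 difference was -0.0039 ± 0.06 (SE), ranging from -0.06 to 0.05 when each library was left out in turn. The ratio of CCNB1 to CDK1 within a library, which does not depend on how the library was scaled, was 0.910 and 0.983 in the controls and 0.696 and 0.738 after knockdown, and the groups did not overlap. For CCNB2 to CDK1 the ratio was 0.579 and 0.677 in the controls and 0.553 and 0.540 after knockdown, also without overlap. CCNA2 to CDK1 differed least between the groups, at 0.341 and 0.353 against 0.324 and 0.338, and did not overlap either.

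Of the inhibitory kinases, WEE1 was higher in the knockdown libraries and PKMYT1 lower, the latter only as long as the GC trend described below was left in. WEE1 (ENSG00000166483.5, chr11:9573681-9593457), a nuclear kinase that phosphorylates the ATP-binding loop of CDK1, was at 12.8 and 13.2 FPKM in the controls and at 17.2 and 17.1 FPKM after knockdown. The means were 13.0 ± 0.2885 and 17.2 ± 0.108 FPKM (SD, n = 2 each). The groups were 3.87 FPKM apart at their nearest, with a log2 difference of 0.37 ± 0.06 (SE). That was within the top 0.966% of tested genes, a rank made from the contrast that chose the members. The log2 difference stayed between 0.35 and 0.40 when each library was left out in turn. The processed pseudogene WEE1P1 was listed at 0 in all 4 libraries.

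PKMYT1 (ENSG00000127564.10, chr16:2968024-2980539), the membrane-bound kinase that acts on CDK1 in the cytoplasm, was at 24.8 and 23.1 FPKM in the controls and at 21.9 and 22.5 FPKM after knockdown. The means were 23.9 ± 1.20 and 22.2 ± 0.412 FPKM, the nearest libraries of the groups were 0.586 FPKM apart, and the log2 difference was -0.10 ± 0.06 (SE). It was -0.05 without control replicate 0 and -0.15 without control replicate 1, and 0.02 with the GC trend removed. PKMYT1 shares exonic bases with 2 genes on the opposite strand, 423 bases of an exon with PAQR4 and 360 bases with KREMEN2. PAQR4 was at 29.5 and 30.1 FPKM in the controls and 27.5 and 26.6 FPKM after knockdown, and KREMEN2 was at 14.5 and 15.5 against 11.0 and 10.9 FPKM; the share of their reads in the value of PKMYT1 was not tested. The ratio of WEE1 to PKMYT1 within a library was 0.517 and 0.572 in the controls and 0.787 and 0.760 after knockdown, so the mean ratio was 1.42 times as high. These kinases lie near opposite ends of the range of GC content among the members, 37.9% for WEE1 and 66.2% for PKMYT1, and with the GC trend removed their log2 differences were 0.31 and 0.02.

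The CDC25 phosphatases, which reverse the inhibitory phosphorylation, showed smaller differences than WEE1. CDC25A (ENSG00000164045.7, chr3:48157146-48188402), which also acts on CDK2 in G1 and S phase, was at 8.18 and 6.77 FPKM in the controls and 8.86 and 8.43 FPKM after knockdown. The means were 7.48 ± 1.00 and 8.65 ± 0.301 FPKM, with a log2 difference of 0.19 ± 0.09 (SE). The gap between the nearest libraries, 0.2498 FPKM, was smaller than the SD of the controls, and the difference was 0.07 without control replicate 1 and 0.31 without control replicate 0.

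CDC25B (ENSG00000101224.13, chr20:3786772-3806121), which acts early in G2 at the centrosome, was at 32.2 FPKM in both controls and at 34.4 and 31.5 FPKM after knockdown. The knockdown libraries fell on either side of the controls, with a log2 difference of 0.03 ± 0.06 (SE), which became -0.03 without knockdown replicate 0. CDC25C (ENSG00000158402.13, chr5:138285265-138338355), which completes the activation of CDK1 at mitosis, was the least abundant member, at 5.81 and 6.21 FPKM in the controls and 6.42 and 6.23 FPKM after knockdown. The groups were separated by only 0.0243 FPKM and the log2 difference was 0.06 ± 0.07 (SE), or 0.02 without control replicate 0 and 0.10 without control replicate 1. At the estimated depth CDC25C rested on about 749 fragments in control replicate 0, a counting error of 3.65% beside a difference of 5.21% between the group means. CDC25C shares 293 exonic bases with FAM53C on the opposite strand, which was at 31.9 and 28.7 FPKM in the controls and 30.5 and 27.1 FPKM after knockdown.

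Setting each activator against WEE1 within a library puts the members on a scale free of library size. CDK1 to WEE1 was 2.999 and 2.50 in the controls and 2.75 and 2.71 after knockdown, so the knockdown values lay inside the control range and the mean ratio was 0.993 times that of the controls. CCNB1 to WEE1 was 2.73 and 2.46 in the controls and 1.92 and 2.0002 after knockdown, 0.755 times the control mean. CDC25B to WEE1 was 2.51 and 2.44 against 1.999 and 1.85, and CDC25C to WEE1 was 0.455 and 0.470 against 0.372 and 0.365. Each of these 3 ratios was lower after knockdown, with no overlap between the groups. The share of other gene pairs whose ratios separate in this way was not counted, so nothing is read from the separation. CDC25A to WEE1 overlapped between the groups, at 0.640 and 0.513 against 0.514 and 0.494. Against PKMYT1 the direction was the other way, with mean ratios 1.25, 1.10 and 1.13 times the control for CDC25A, CDC25B and CDC25C. A ratio within a library keeps any trend on GC content, described below: with that trend removed, the log2 differences were 0.21, 0.10 and 0.07 for CDC25A, CDC25B and CDC25C beside 0.02 for PKMYT1 and 0.31 for WEE1. All of these ratios are made from the values that chose the members, and they describe transcript levels, not the amount or activity of the proteins.

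**Figure D2:**
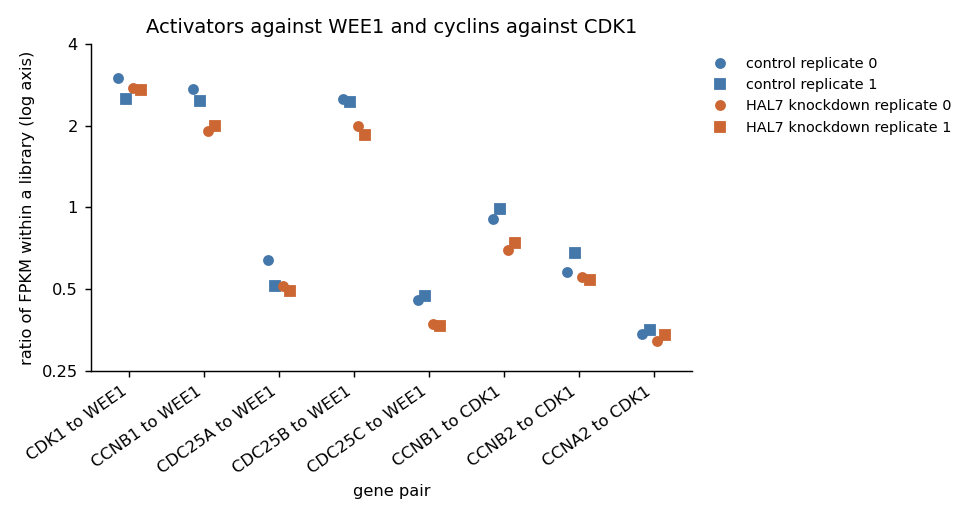
Ratios of FPKM between pairs of mitotic entry genes, on a log axis, with 1 point for each of the 2 control libraries (blue) and 2 knockdown libraries (orange). CCNB1 to WEE1 is at 2.73 and 2.46 in the controls and at 1.92 and 2.0002 after knockdown, while CDK1 to WEE1 is at 2.75 and 2.71 after knockdown, inside the control range of 2.50 to 2.999.

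Ordered by mean level over the 4 libraries, in FPKM, which is per length of transcript, CKS2 led at 148, followed by CDK1 at 41.3, CCNB1 at 33.6 and CDC25B at 32.6. CCNB2 at 23.9 and PKMYT1 at 23.0 came next, then WEE1 at 15.1, CCNA2 at 13.9, CDC25A at 8.06 and CDC25C at 6.17. The ranges over all 4 libraries did not overlap at 5 of the 9 steps in this order, and they overlapped at the other 4, where the groups also differ. CDK1 was above CCNB1 in each of the 4 libraries, by a wider margin after knockdown. CCNB1 was above CDC25B in both controls and overlapped with it after knockdown. PKMYT1 was above CCNB2 in both controls and below it in both knockdown libraries. WEE1 and CCNA2 overlapped in the controls, and after knockdown WEE1 was higher.

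The differences moved with the GC content of the transcripts. Over the 12499 tested genes with an annotated transcript, Spearman's rho between log2 difference and GC content was -0.41, and in 5 equal groups by GC content the median log2 difference went from 0.06 in the lowest to -0.08 in the highest. Between the controls (replicate 0 minus replicate 1) the same rho was -0.05, and between the knockdown libraries it was -0.34. Knockdown replicate 0 against each control gave -0.52 and -0.49, and knockdown replicate 1 gave -0.20 and -0.20. These correlations run across genes of shared libraries, which are not independent replicates.

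Among the 10 members, rho with GC content was -0.84, given as a description over genes of the same 4 libraries. CDK1 had the lowest GC content, 37.0%, then WEE1 at 37.9%, and PKMYT1 the highest, 66.2%; the median was 43.8% for the members and 48.6% for all genes. The trend over all genes was 0.07 at the GC content of CDK1 and 0.06 at that of WEE1. With it taken out of each library, CDK1 and WEE1 were both at 0.31, CKS2 at 0.30 and CCNA2 at 0.27. CCNB2 was then at 0.18, CDC25A at 0.21, CDC25B at 0.10, CDC25C at 0.07 and CCNB1 at -0.03. PKMYT1 went from -0.10 to 0.02, so its lower level does not hold once the trend is removed. The members' median was 0.20 and 9 of 10 were positive, beside a median of 0.00461 for all genes. What gives rise to the GC trend was not tested.

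**Figure D3:**
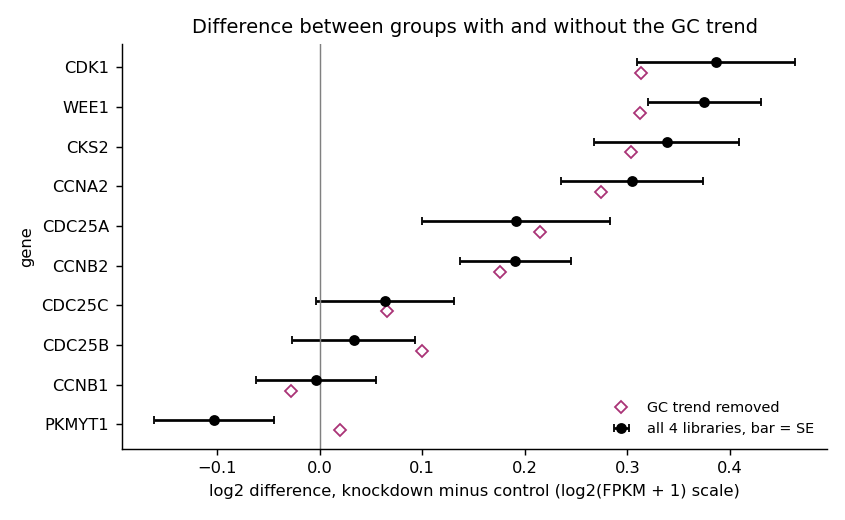
Log2 difference, knockdown minus control on the log2(FPKM + 1) scale, of the 10 mitotic entry genes, as black points with bars for 1 standard error of the limma fit, and as open diamonds with the GC trend removed. CDK1 at 0.39 and WEE1 at 0.37 stand at the top, each 0.31 as a diamond, and PKMYT1 goes from -0.10 to 0.02.

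**Figure D4:**
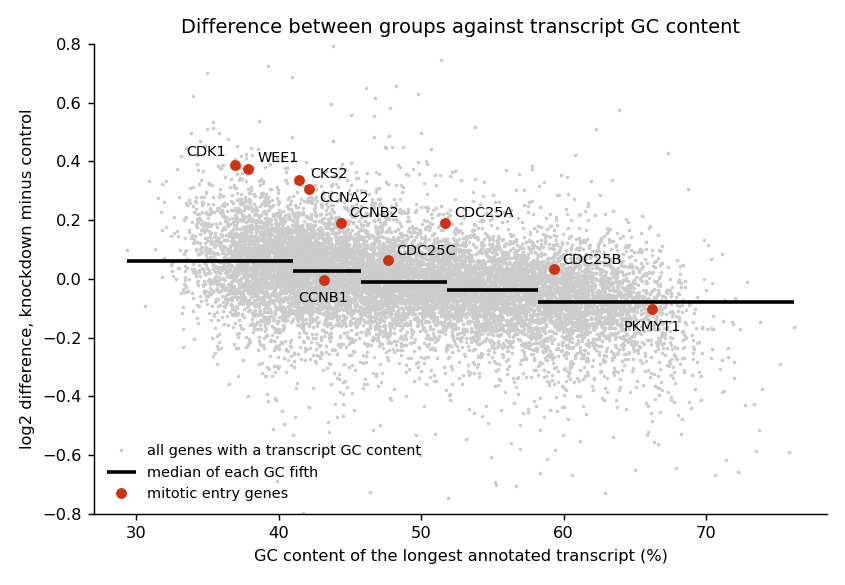
Log2 difference, knockdown minus control, against the GC content of the longest annotated transcript in percent, with tested genes in grey, the 10 mitotic entry genes in red and the median of each of 5 groups of genes by GC content as a black bar. The medians go from 0.06 to -0.08; CDK1 and WEE1 lie above the first of them and CCNB1 and PKMYT1 below theirs, and 28 grey genes beyond 0.8 in either direction are outside the frame.

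The genes that surround the switch were read from 5 lists without the members, chosen with earlier results of these data known: CDK1's partners and activating kinase, the Greatwall and PP2A-B55 module, the factors that act on G2/M promoters, the G2 checkpoint, and the ubiquitin ligases APC/C and SCF. Of their 95 genes in the table, 91 were tested and 68 had a positive log2 difference, beside 46.8% of all tested genes. None of the 91 passed an adjusted p of 0.05 in the limma fit. At an unadjusted p under 0.05, 14 (15.4%) were higher and 3 (3.30%) lower, beside the 7.25% and 9.35% of all genes given above. Their median log2 difference was 0.05. With the GC trend removed, the medians of the 5 lists, in the order above, were 0.05, 0.03, 0.06, 0.04 and 0.05, where they were 0.02, 0.03, 0.09, 0.05 and 0.06 before, so the sign of each median was kept. No gene named in the next paragraphs passed the adjusted threshold.

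Among the 13 tested partners and activating kinases, 9 were positive with a median of 0.02, and 3 were higher and 0 lower at the unadjusted threshold. CCNE2, a cyclin of CDK2 at the start of S phase, was at 6.63 and 5.58 FPKM in the controls and 7.83 and 7.86 FPKM after knockdown, and BORA, a cofactor of AURKA in activating PLK1, at 10.6 and 11.4 against 13.0 and 12.7 FPKM. The kinases themselves were close to even, with ratios of 0.995 for PLK1, 1.02 for AURKA, 0.996 for CDK2 and 1.07 for CDK7, and CCNF had a ratio of 1.01.

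The Greatwall kinase MASTL restrains the phosphatase PP2A-B55, which removes CDK1's phosphorylations, by way of ARPP19 and ENSA. MASTL was at 10.6 and 9.61 FPKM in the controls and 12.1 and 11.2 FPKM after knockdown, and ARPP19 at 26.1 and 21.6 against 30.2 and 28.3 FPKM. ENSA had a ratio of 1.02, the PP2A scaffold PPP2R1A one of 0.989, and PPP1CC and PPP1CA, catalytic subunits of the separate phosphatase PP1, ratios of 1.13 and 1.01. Of the 11 genes tested 7 were positive, with a median of 0.03, and 3 were higher and 0 lower at the unadjusted threshold.

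The factors that act on G2/M promoters gave 15 positive of 18, with a median of 0.09. At the unadjusted threshold, 4 were higher and 0 lower. The list is wider than the factors that bind the CHR and CCAAT letters printed above, and also holds E2F factors. NFYB, a subunit of the CCAAT-binding NF-Y, was at 28.7 and 29.3 FPKM in the controls and 34.1 and 34.3 FPKM after knockdown; its log2 difference of 0.23 was 0.14 with the GC trend removed. LIN9, a core MuvB subunit, was at 8.25 and 7.77 against 9.58 and 9.42 FPKM, and MYBL2, which joins MuvB, at 47.1 and 46.2 against 49.4 and 54.2 FPKM. The activator FOXM1 had a ratio of 1.05, the CHR-binding LIN54 1.07, RBBP4 1.06, TFDP1 1.11, and the repressor components E2F4 and RBL1 0.996 and 1.07.

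In the G2 checkpoint, which keeps CDC25 inactive and WEE1 active after DNA damage, 16 of 21 were positive with a median of 0.05, while 1 was higher and 3 were lower at the unadjusted threshold. The 3 were YWHAQ, a 14-3-3 protein, at 169 and 181 FPKM in the controls and 138 and 148 FPKM after knockdown, HUS1, part of the 9-1-1 clamp, at 11.6 and 11.2 against 9.40 and 9.45 FPKM, and CDKN1A, the CDK inhibitor p21, at 90.7 and 90.5 against 81.6 and 77.1 FPKM. The checkpoint kinases CHEK1 and CHEK2 had ratios of 1.12 and 1.14, their mediator CLSPN 1.10, and the 14-3-3 protein YWHAE 1.05.

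Of the 28 genes of APC/C and SCF proteolysis, which destroys cyclins at mitotic exit and also targets WEE1 and CDC25A, 21 were positive with a median of 0.06, and 3 were higher and 0 lower at the unadjusted threshold. FBXO5, an inhibitor of APC/C, was at 20.9 and 20.7 FPKM in the controls and 24.4 and 25.0 FPKM after knockdown, and UBE2D1, a ubiquitin-conjugating enzyme, at 8.97 and 7.49 against 9.90 and 11.0 FPKM. With the GC trend removed, the log2 difference of FBXO5 went from 0.24 to 0.13 and that of UBE2D1 from 0.31 to 0.20. The APC/C activators CDC20 and FZR1 had ratios of 1.02 and 0.934, and UBE2C 1.05. BTRC and FBXW11, the SCF subunits that recognise WEE1 and CDC25A, had ratios of 1.06 and 0.996.

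**Figure D5:**
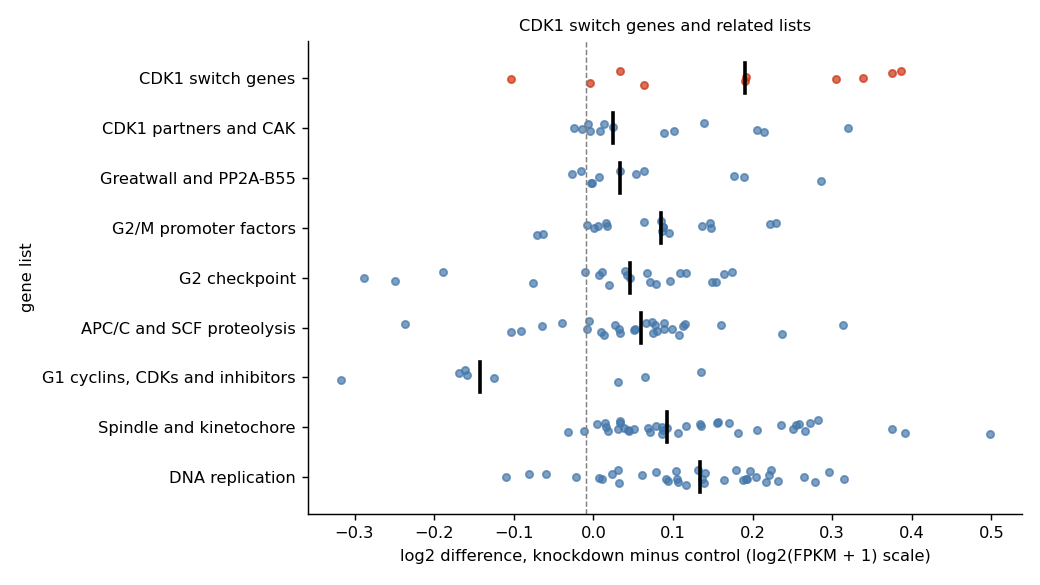
Log2 difference, knockdown minus control, of each tested gene (points) in the set of 10 mitotic entry genes and in the lists around it, with a bar at the median of each and a dashed line at the median of all tested genes, -0.01. The medians are 0.19 for the mitotic entry genes, 0.02 to 0.09 for the 5 surrounding lists, 0.09 for spindle and kinetochore genes, 0.13 for replication genes and -0.14 for G1 cyclins, CDKs and inhibitors.

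For comparison with other phases of the cycle, 37 of 39 spindle and kinetochore genes were positive with a median of 0.09, and 14 were higher and 0 lower at the unadjusted threshold. Their smallest p-values were those of CENPQ, a kinetochore subunit with a ratio of 1.47, and CENPK, another, with 1.31, next to which CDK1 and WEE1 stand at 1.31 and 1.32. With the GC trend removed, the log2 difference of CENPK went from 0.38 to 0.25. Of 36 replication genes 32 were positive with a median of 0.13, and 16 were higher and 0 lower; MCM6, part of the replicative helicase, had a ratio of 1.24 and PRIM1, a primase subunit, one of 1.22. Among all tested genes, 7.25% were higher and 9.35% lower at the unadjusted threshold. Neither list held a gene past the adjusted threshold. With the GC trend removed the medians were 0.09 for spindle and kinetochore genes and 0.15 for replication genes. The members' median of 0.19 was not tested against these lists.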

How the data were processed

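Polyadenylated RNA of 2 control and 2 HAL7-knockdown libraries was measured. The deposited values were read as FPKM made by the authors with Cuffdiff, since the ID column has Cuffdiff's name and the unit is not written in the table. Per the submitters' processing notes the tools were TopHat2 2.0.14, Bowtie2 2.2.5 and Cuffdiff 2.2.1, and the build was hg19. The sources used here do not give the gene annotation, library scaling or use of strand. Symbols came from a reference list of gene names, or from GENCODE 29 where that list gave none. Transcript length and GC content came from GENCODE 29 on GRCh38. All were matched by gene ID, for 40158 of 43450 genes.

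A linear model of log2(FPKM + 1) was fitted with limma 3.58.1 (R 4.3.3) to 12935 genes, those that averaged 1 FPKM or more and HAL7, with a variance trend; p-values were two-sided and adjusted after Benjamini-Hochberg, with a threshold of 0.05. The pseudocount of 1 makes differences of low genes smaller. Each ratio divides the mean FPKM of the knockdown group by that of the controls. The script was tested on simulated data. Relative depth was estimated from 1214 genes with 1 annotated transcript of at least 2500 bases: 82.3% to 90.2% of their low values lay within 0.15 of a whole multiple of 1 step, where chance gives 30%. Depths relative to control replicate 0 were 2.11, 1.78 and 1.59 in control replicate 1 and knockdown replicates 0 and 1. Fragment numbers and counting errors cover counting only.

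The members and all lists were chosen with earlier results of these data known. Of 229 list symbols 227 matched. Genes named are the members, HAL7, regulators picked by role, in each list the 2 of highest mean and the 2 of smallest p, and the 5 protein-coding genes most like CDK1 and WEE1 in pattern; some are not named in the text. Alternatives were pseudocounts of 0.1 and 5, no filter or a mean of at least 5 FPKM, quantile and median scaling, and no variance trend. Others were the replicate number as a block, removal of a loess trend on GC content (span 0.3) in each library, and both together. Each library was also left out in turn, with the lone library assumed to vary like the other group.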

Additional observations from a re-analysis of the deposited data

How the results depend on the processing

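Under the alternative settings that kept all 4 libraries, 0 of the 10 mitotic entry genes and 0 of the tested genes in the surrounding lists passed an adjusted p of 0.05. Under all 14 alternatives, 8 or 9 of the 10 and 65 to 72 of the list genes were positive. The number of list genes tested, 91 in the main fit, was larger with no filter and smaller with a mean of at least 5 FPKM. The members' median log2 difference, 0.19, was 0.15 with a pseudocount of 5 and 0.15 to 0.25 when each library was left out. The number of genes past the threshold over the whole table, 4, was 2 with a pseudocount of 0.1, 1 with no filter, 1 with a mean of at least 5 FPKM, 11 to 22 when each library was left out, and 2148 at an unadjusted p of 0.05; the cause was not tested. With the replicate number as a block it was 19. With the GC trend removed it was 5, both with and without that block. Deviations of same-numbered libraries correlated at 0.12 over genes with only 2 pairs, so the numbers are not taken to pair the libraries; the block changed no call among the members. Depth limits CDC25C most among the members.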

Other observations

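Upstream of the switch, the list of G1 cyclins, CDKs and inhibitors also held RB1. The 8 tested genes of the list had a median log2 difference of -0.14, with 3 positive, RB1 among them. At an unadjusted p under 0.05 in limma, 0 were higher and 3 lower, beside 7.25% and 9.35% of all tested genes. None of the list passed the adjusted threshold. CCND3, cyclin D3, was at 435 and 436 FPKM in the controls and at 390 FPKM in both knockdown libraries. CDKN1C, the CDK inhibitor p57, was at 14.6 and 16.9 against 12.8 and 12.1 FPKM, and CDKN2D, the CDK4 inhibitor p19, at 48.6 and 49.7 against 42.8 and 44.5 FPKM. CDK4 had a ratio of 1.05. The median GC content of the list was 54.9%, and its median log2 difference was -0.09 with the GC trend removed.

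By the root mean square difference of centred log2 values over the 4 libraries, the genes most like CDK1 were USP1 (0.0140), FAM111B (0.0191), SKA2 (0.0196), ZNF367 (0.0208) and TM9SF3 (0.0282). USP1 was at 26.0 and 22.8 FPKM in the controls and 32.6 and 32.2 FPKM after knockdown. For WEE1 they were CENPK (0.0217), CLEC2D (0.0279), PMS1 (0.0357), MAD2L1 (0.0372) and PLEKHF2 (0.0380), with CENPK at 19.4 and 19.2 against 25.2 and 25.4 FPKM. Within the mitotic entry genes the closest pair was CCNA2 and CKS2 (0.0388). Likeness over 4 libraries is a description, and the libraries are shared by all genes compared.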
